A study of Mus musculus with 2 samples.

Results

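The levels of 10 genes that mark Kupffer cells, Marco, Clec4f, Cd5l, Vsig4, Timd4, Adgre1, C1qa, C1qb, C1qc and Csf1r, were followed across spatially resolved mouse liver, with Marco set against the summed level of the 9 others. The members were found by their symbols, and all 10 were present among the 19465 genes counted in each section. They were chosen by measured values of these same sections, namely the level of each gene per section and its course along the liver lobule, so the differences between sections and along the lobule are given as descriptions and carry no test.

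Kupffer cells are the resident macrophages of the liver, and they sit inside the sinusoids, where they meet blood that arrives from the gut through the portal vein. They take up bacteria, aged red blood cells and debris through an array of surface receptors, among which MARCO is a class A scavenger receptor that binds bacteria and other particles without antibody or complement. Kupffer cells are known to be denser toward the portal end of the lobule than toward the central vein, and in the mouse liver MARCO has been described on cells near the portal end.

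The study asked how palmitoylation of AEG-1 (gene Mtdh), the attachment of a fatty acid to its cysteine 75, affects gene expression along the liver lobule. Livers came from a wild-type mouse (AEG-1-WT, or WT) and from a knock-in littermate in which CRISPR editing had changed cysteine 75 to serine (AEG-1-C75S, or C75S). Both animals were female, 8 weeks old, untreated and born to heterozygous parents, and the same lobe was taken from each. One 5 μm section of formalin-fixed, paraffin-embedded liver per genotype was analysed on 10x Visium slides, on which pairs of probes that meet on an mRNA are captured and counted as unique molecular identifiers (UMIs) in barcoded spots. With 1 animal per genotype, genotype cannot be told apart from the animal, the section or the slide area, and no test between genotypes was possible.

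Spots with at most 50000 UMIs were kept, which left 2309 spots and 42246988 UMIs in WT and 2163 spots and 41674347 UMIs in C75S, with medians of 16830 and 18808 UMIs per spot. C75S held 397 spots under 10000 UMIs and WT held 31. The sections shared 1896 spot barcodes, which are positions on a slide and not cells. Mtdh had 74.4 UMIs per 1000000 UMIs of the section (CPM) in WT and 73.3 CPM in C75S, and since the probes count the mutant and the wild-type mRNA alike this does not check the genotype. A spot is a small region of several cells, mostly hepatocytes, so that fewer Kupffer cells and less RNA per Kupffer cell cannot be told apart at any level given here. Brackets after a value hold 95% intervals, exact Poisson for sums, exact binomial for shares and for log2 ratios, and from the 4 Poisson counts for a ratio of ratios. All of them cover counting error only.

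The 10 genes lie on 8 chromosomes of the mm10 genome (GRCm38), and only the 3 C1q genes are neighbours, on chromosome 4 with C1qb at chr4:136880126-136886200, C1qc at chr4:136889801-136892936 and C1qa at chr4:136895916-136898844. Marco spans chr1:120474538-120505024 on the minus strand. Promoter sequence from RefSeq (GRCm38.p6) was matched to 7 of the 10 members, and Adgre1, C1qa and Csf1r had no entry in the table used. The 250 bases before the annotated start are shown 5′ to 3′ on the gene's own strand for Marco (minus strand, chr1:120505025-120505274), the member that differed most between the sections, for Cd5l (plus strand, chr3:87357631-87357880), the member most correlated with Marco over spots, and for Clec4f (minus strand, chr6:83656117-83656366), the member that differed least. Capitals mark GAGGAA or its reverse complement, the core letters bound by PU.1, a transcription factor of macrophages.
Marco: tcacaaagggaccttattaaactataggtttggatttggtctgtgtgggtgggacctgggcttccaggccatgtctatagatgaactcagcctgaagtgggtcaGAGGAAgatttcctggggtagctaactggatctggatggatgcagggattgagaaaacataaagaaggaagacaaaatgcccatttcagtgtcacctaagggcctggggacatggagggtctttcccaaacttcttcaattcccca
Cd5l: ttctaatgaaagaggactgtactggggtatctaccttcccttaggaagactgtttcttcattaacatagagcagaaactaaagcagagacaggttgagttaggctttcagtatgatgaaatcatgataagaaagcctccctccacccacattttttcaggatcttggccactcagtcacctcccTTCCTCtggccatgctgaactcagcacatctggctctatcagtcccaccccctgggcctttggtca
Clec4f: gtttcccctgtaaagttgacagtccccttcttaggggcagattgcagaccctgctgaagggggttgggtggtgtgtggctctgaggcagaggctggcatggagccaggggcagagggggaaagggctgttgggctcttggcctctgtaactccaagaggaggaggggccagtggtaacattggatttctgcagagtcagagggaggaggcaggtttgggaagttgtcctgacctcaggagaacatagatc

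GAGGAA, searched on both strands, was found in the windows of 5 of the 7 members. It was found in 23.3% of 32851 mouse promoters of the same length, chromosome 18 left out. In Marco the match began 146 bases before the start, in Cd5l 66 bases before it, and the Clec4f and Timd4 windows held none. TGCTGA, the half-site of MAF factors, was found on either strand in 4 of the 7 members and 16.1% of all promoters, and TGACNNNGC, the core of the antioxidant response element bound by NRF2 with MAF proteins, in 2 of 7 and 10.2%. The Marco window held neither. A match is a run of letters and was not tested as a binding site.

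Marco was the member with the largest difference between the sections. It had 1472 UMIs in WT (34.8 CPM, 33.1 to 36.7) and 4449 in C75S (107 CPM, 104 to 110), a log2 ratio of 1.62 (1.53 to 1.70) or 3.06-fold (2.89 to 3.25). Ranked from the highest ratio down, it was number 14 of the 10389 genes whose UMIs in the sections together came to at least 200. Of these genes 172 were at least 1.5-fold higher in C75S (1.66%), 331 were at least 1.5-fold lower (3.19%), and the median log2 ratio was -0.05. With scaling by trimmed mean of M-values (TMM) the split was 219 higher and 269 lower, so that higher calls made up 44.9% in place of 34.2%. Beside the background of 1.66%, 2 of the 10 members were at least 1.5-fold higher, Marco and Adgre1, and none was 1.5-fold lower, in the contrast from which the members were chosen.

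The 9 other genes were all higher in C75S too, each with a counting interval above 0, but by less. Summed, they had 58616 UMIs in WT (1387 CPM, 1376 to 1399) and 72390 in C75S (1737 CPM, 1724 to 1750), a log2 ratio of 0.32 (0.31 to 0.34). Single log2 ratios ran from 0.10 to 0.62 with a median of 0.42.

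**Figure D1:**
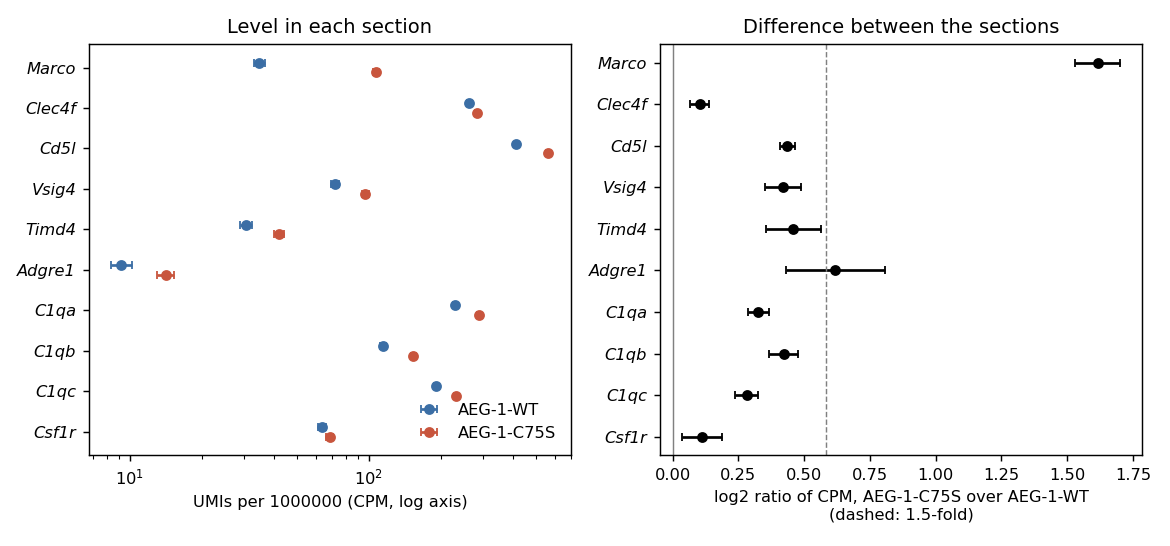
Left, the level of each of the 10 genes in CPM (log axis) in the WT and C75S sections; right, the log2 ratio (C75S to WT) with 1.5-fold dashed. Bars are 95% intervals for counting error with 1 section per genotype; Marco lies at 1.62, and the 9 others lie between 0.10 and 0.62.

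Among the surface receptors, Clec4f, a C-type lectin found on Kupffer cells, had the smallest difference, with 11107 UMIs in WT and 11763 in C75S and a log2 ratio of 0.10 (0.06 to 0.14). Vsig4, the receptor for complement fragments C3b and iC3b, had 72.2 and 96.7 CPM (0.42, 0.35 to 0.49). Timd4, a receptor for phosphatidylserine on dying cells, had 30.6 and 42.1 CPM (0.46, 0.35 to 0.56). Adgre1, which encodes the macrophage antigen F4/80, was the most thinly counted member, with 389 UMIs (9.21 CPM) and 589 UMIs (14.1 CPM). Its log2 ratio of 0.62 (0.43 to 0.81) had an interval that reached below 1.5-fold, and with equal weight per spot the ratio was 0.52. Csf1r, the receptor for the growth factors CSF1 and IL34 on which macrophages depend, had 63.4 and 68.5 CPM (0.11, 0.03 to 0.19). Its ratio was -0.030 after a single random thinning of spots to 3000 UMIs, which left Csf1r in only 397 WT and 369 C75S spots.

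The remaining members encode secreted proteins. Cd5l, an apoptosis inhibitor released by macrophages, had 17501 UMIs in WT (414 CPM, 408 to 420) and 23352 in C75S (560 CPM, 553 to 568), a log2 ratio of 0.44 (0.41 to 0.46). The genes of C1q, the recognition molecule of the classical complement pathway, which is assembled from equal numbers of A, B and C chains, differed by 0.33 for C1qa (230 and 288 CPM), 0.42 for C1qb (115 and 154 CPM) and 0.28 for C1qc (191 and 232 CPM). Each chain's share of all C1q UMIs moved little: C1qa held 42.9% in WT and 42.8% in C75S, C1qb 21.4% and 22.8% (22.3 to 23.3%), and C1qc 35.7% (35.0 to 36.3%) and 34.4% (33.9 to 35.0%). Within the sum of the 9 others, Cd5l held 29.9% of the UMIs in WT and 32.3% in C75S, and Clec4f held 18.9% and 16.2%. These shares depend on the probes of each gene and say nothing of which mRNA was the more abundant.

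Set against the 9 others, Marco had 2.51 UMIs per 100 of theirs in WT (2.38 to 2.64) and 6.15 in C75S (5.96 to 6.33). The ratio between the sections was 2.45-fold (2.30 to 2.60), or 1.29 on the log2 scale (1.20 to 1.38), and since both counts come from the same spots no library scaling enters it. Taken against each of the 9 genes alone, Marco was relatively higher in C75S, which follows from its log2 ratio being above each of theirs. These 9 ratios reuse the same Marco difference and are not separate results. The ratio was lowest against Adgre1 (1.73- to 2.30-fold) and highest against Clec4f (2.85-fold, 2.68 to 3.04) and Csf1r (2.84-fold, 2.62 to 3.07). Against Cd5l, Vsig4, Timd4 and C1qb the ratio was between 2.23-fold and 2.29-fold, against C1qa it was 2.44-fold and against C1qc 2.52-fold.

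Each section was then divided into 5 equal bins of its spots by (Cyp2f2 + 1)/(Cyp2e1 + 1), a ratio of a periportal to a pericentral hepatocyte gene, with bin 1 at the periportal end. The bins held 461 or 462 spots in WT and 432 or 433 in C75S. Their median axis ratios ran from 1.09 in bin 1 to 0.0376 in bin 5 in WT and from 1.08 to 0.0600 in C75S, so that a bin stands for the rank of a spot and not for the same axis value in both sections.

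From bin 1 to bin 5, Marco had 36.8, 43.3, 39.6, 31.7 and 21.8 CPM in WT. In C75S it had 112, 126, 124, 97.3 and 75.1 CPM. Marco thus was highest in bin 2 and lowest in bin 5 in both sections, and its lowest bin in C75S lay above its highest in WT. The intervals of bins 2 and 3 overlapped, however, with 39.0 to 47.9 and 35.6 to 43.9 CPM in WT and 118 to 133 and 116 to 132 CPM in C75S. The log2 ratio between the sections was 1.60 in bin 1 (1.41 to 1.80), 1.54, 1.65 and 1.62 in the middle bins and 1.78 in bin 5 (1.54 to 2.04).

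The sum of the 9 others had 1342, 1456, 1541, 1401 and 1170 CPM from bin 1 to bin 5 in WT and 1585, 1846, 1973, 1805 and 1474 CPM in C75S. It was highest in bin 3 and lowest in bin 5 in both sections. Singly, 7 of the 9 had their highest value in bin 3 in both sections, some with intervals that overlapped those of bin 2. The exceptions were C1qc in WT (bin 2) and Timd4 in C75S (bin 4). The lowest value was in bin 5 for all 9 except Adgre1 in WT (bin 2) and Vsig4 in C75S (bin 1), where the values at the compared bins had overlapping intervals.

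**Figure D2:**
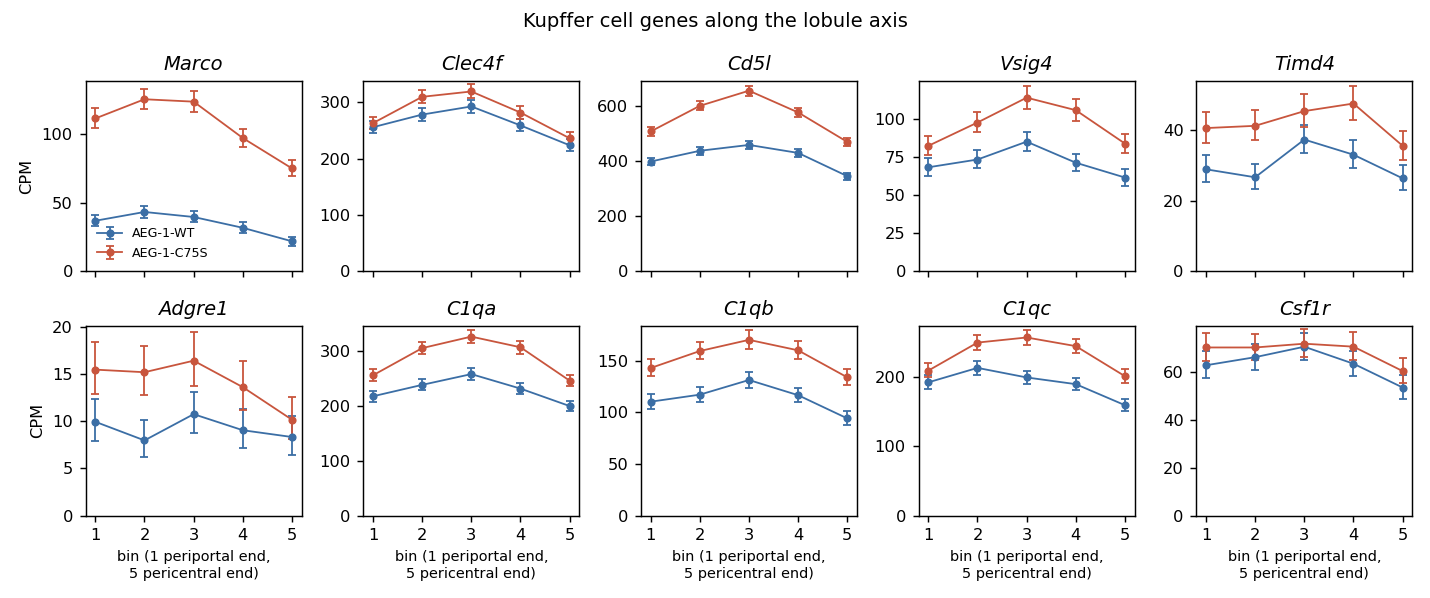
CPM of each of the 10 genes in the 5 bins of the spots of each section, ordered from the periportal end (bin 1) to the pericentral end (bin 5); bars are 95% Poisson intervals. The Marco curves do not overlap at any bin, with 21.8 to 43.3 CPM in WT and 75.1 to 126 in C75S, while the Clec4f and Csf1r curves of the sections lie close together.

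Between the end bins, Marco was 1.69-fold higher at the periportal end in WT (log2 0.76, 0.48 to 1.04) and 1.49-fold higher in C75S (0.57, 0.42 to 0.72). The difference between these gradients was -0.18 with an interval from -0.49 to 0.12, and with the bins set at the same axis values in both sections the gradients were 0.70 and 0.71. After a random draw of 3000 UMIs from each spot, which kept only a small part of the Marco UMIs, the log2 gradients were 0.38 and 0.35, and without the 5% of spots with the most Marco UMIs that of C75S was 0.33. In WT 301 of 9268 genes were at least 1.5-fold higher in bin 1 than in bin 5 (3.25%), among them 1 of the 10 members, Marco, at rank 209, and 495 were at least 1.5-fold lower (5.34%), with no member among them. In C75S 208 of 9155 genes were (2.27%), among them 1 member, Adgre1, at 1.52-fold (0.20 to 1.02 on the log2 scale), whereas Marco at rank 222 was just short of it, and none of the 427 lower genes (4.66%) was a member. This course was also known when the members were chosen.

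The 9 others had shallower gradients. Their sum was higher in bin 1 than in bin 5 by 0.20 on the log2 scale in WT (0.16 to 0.24) and by 0.10 in C75S (0.07 to 0.14), and the difference of -0.09 had an interval of -0.15 to -0.04 that depended on the binning. With bins set at the same axis values in both sections these gradients were both 0.16, and the difference was 0.00375 (-0.051 to 0.058). In the thinned spots the gradients of the sum were 0.13 and 0.044. Of the single genes C1qc differed most beyond counting error, with a gradient of 0.27 in WT (0.16 to 0.38) and 0.06 in C75S (-0.04 to 0.16), a difference of -0.21 (-0.36 to -0.07). For the other 8 of these genes and for Marco the interval of the difference included 0. With the same axis values in both sections, an alternative chosen for single genes after seeing the data, the difference for C1qc was -0.12 with an interval that included 0 (-0.27 to 0.023), and that for Adgre1 was 0.65 with an interval just above 0 (0.0042 to 1.30). Across all genes tested the median gradient was -0.12 in WT and -0.10 in C75S.

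The count of Marco per 100 UMIs of the others was, from bin 1 to bin 5, 2.74, 2.97, 2.57, 2.26 and 1.86 in WT. In C75S it was 7.04, 6.81, 6.28, 5.39 and 5.09. The relative count of Marco was therefore lower toward the pericentral end in both sections, by 0.56 on the log2 scale between the end bins in WT (0.28 to 0.83) and by 0.47 in C75S (0.32 to 0.62). In the thinned spots these values were 0.24 and 0.31. Between the sections the relative level differed by 2.57-fold in bin 1 (2.24 to 2.94), 2.29-fold in bin 2 (2.03 to 2.58), 2.45-fold in bin 3, 2.38-fold in bin 4 and 2.73-fold in bin 5 (2.31 to 3.24). The intervals of all 5 bins overlapped one another, and the lowest bound among them was 2.03-fold.

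**Figure D3:**
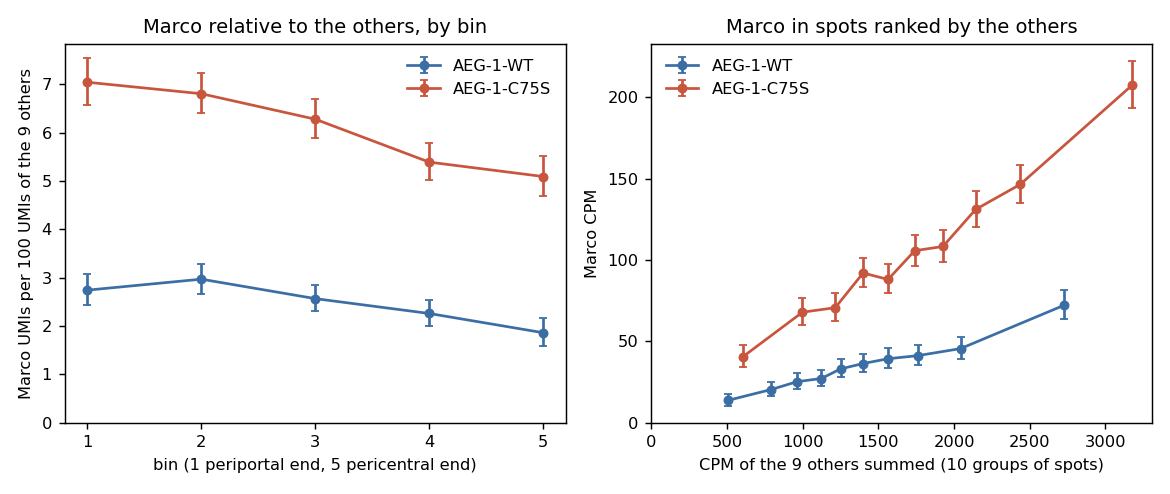
Left, Marco UMIs per 100 UMIs of the 9 others in each bin of the spots, from the periportal (1) to the pericentral end (5); right, Marco CPM against the summed CPM of the 9 others in 10 equal groups of the spots ranked by the others. Bars are 95% intervals for counting error; C75S lies above WT at every bin (5.09 to 7.04 against 1.86 to 2.97).

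Spots were also ranked within a section by the summed CPM of the 9 others and divided into 10 equal groups. In the group richest in them Marco had 72.2 CPM in WT (63.7 to 81.4) and 208 CPM in C75S (194 to 222), and in the poorest group it had 13.7 and 40.7 CPM. Over these pooled groups of spots, Marco thus was higher where the other genes were richest than where they were poorest, in both sections. Per 100 UMIs of the others it stayed between 2.23 and 2.73 over all 10 groups of WT and between 5.63 and 6.81 over those of C75S. The higher relative level in C75S was thus present in spots poor and rich in the other genes alike.

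In single spots Marco was counted sparsely. No Marco UMI was counted in 1350 WT spots (58.5%), 635 held 1 UMI, 211 held 2 and 15 held 5 or more, with at most 13 in a spot. In C75S 543 spots had none (25.1%), 545 had 1, 419 had 2 and 257 had 5 or more (11.9%), with at most 18. The 10% of spots with the most Marco held 44.1% of its UMIs in WT and 33.7% in C75S, a share that falls as the mean count per spot (0.638 and 2.06 UMIs) is higher, and the variance over the mean was 1.51 and 2.37. The others, by contrast, had at least 1 UMI in 2308 of 2309 WT spots and 2162 of 2163 C75S spots.

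Since a share of spots depends on depth, UMIs were drawn at random down to 3000 per spot, and 4 WT and 3 C75S spots with fewer were left out. Marco then had a UMI in 9.50% of WT spots (8.33 to 10.8%) and 25.7% of C75S spots (23.9 to 27.6%). Clec4f had one in 53.0% and 55.0%, Cd5l in 68.1% and 76.3%, and any of the 9 others in 95.8% and 97.3%. Of the thinned spots with Marco, 4 of 219 in WT and 9 of 556 in C75S had no UMI of the 9 others.

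Over single spots the correlation (Pearson's r of log2(10000 × UMIs/total + 1)) of Marco with another member ran from 0.02 with Adgre1 to 0.25 with Cd5l in the 2309 WT spots, with a median of 0.16. In the 2163 C75S spots it ran from 0.13 with Adgre1 to 0.33 with Cd5l, with a median of 0.21. The 36 pairs among the 9 others had medians of 0.19 and 0.18, and Clec4f with Cd5l was the highest pair in both sections (0.46 and 0.45). Spots of a section share its library and neighbouring tissue, and sparse counts lower r, and Marco was counted more often in C75S.

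Over the 10 section-bins, 5 from each section, the genes whose log2 CPM followed Marco most closely were Fgg, Fga, Igfbp2, Fgb and Ahsg, each with r = 0.99 among 6882 genes with at least 1000 UMIs. They encode the 3 chains of fibrinogen, an insulin-like growth factor binding protein and fetuin-A, proteins that hepatocytes secrete. Igfbp2 had 1070 CPM in WT and 2370 in C75S, and the fibrinogen genes were higher in C75S by 0.47 to 0.55 on the log2 scale. The genes that followed the sum of the 9 others most closely, with r of 0.97 to 0.98, were Aif1, Tmsb4x, Lgmn, Ly86 and Ctss, of which Aif1, Lgmn, Ly86 and Ctss are expressed by macrophages. Marco followed that sum with r = 0.89, and among the members its r was highest with C1qb (0.94) and Cd5l (0.93) and lowest with Clec4f (0.61). With 5 points from each of 2 libraries, these correlations hold the difference between the sections as well as the course along the lobule.

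Other genes of macrophages were set beside Marco, though some of them, such as Fabp5, Nr1h3 and Id3, may also be expressed by other liver cells. Of 20 further Kupffer cell and macrophage genes found in the files, 19 were measured with at least 200 UMIs. None of these 19 was past 1.5-fold in either direction, beside 1.66% of all genes higher and 3.19% lower. At these shares a list of 19 genes would often hold none, so this count says little. The median log2 ratio of the 19 was 0.26 beside -0.05 for all genes. The highest were Fcer1g, the common signalling chain of Fc receptors, at 41.5 and 59.7 CPM (0.53), and Aif1, a calcium-binding protein of macrophages, at 32.1 and 44.2 CPM (0.46). The lowest were Cd163, the scavenger receptor for haemoglobin bound to haptoglobin, at 44.4 CPM in WT and 32.1 CPM in C75S (-0.47), and Id3, an inhibitor of transcription factors, at 118 and 102 CPM (-0.21). Slc40a1, the iron exporter ferroportin, had 185 and 207 CPM, and Cd68, a lysosomal protein of macrophages, 45.8 and 54.7 CPM.

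Relative to the 9 others, 3 of these 19 genes were higher in C75S beyond counting error, 8 were lower, and the intervals of 8 included 0. Their relative log2 ratios ran from -0.79 for Cd163 to 0.20 for Fcer1g with a median of -0.07. Marco, at 1.29, lay above them all. It was among the members chosen by measured values of these sections, so its place above them is a description and carries no test.

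**Figure D4:**
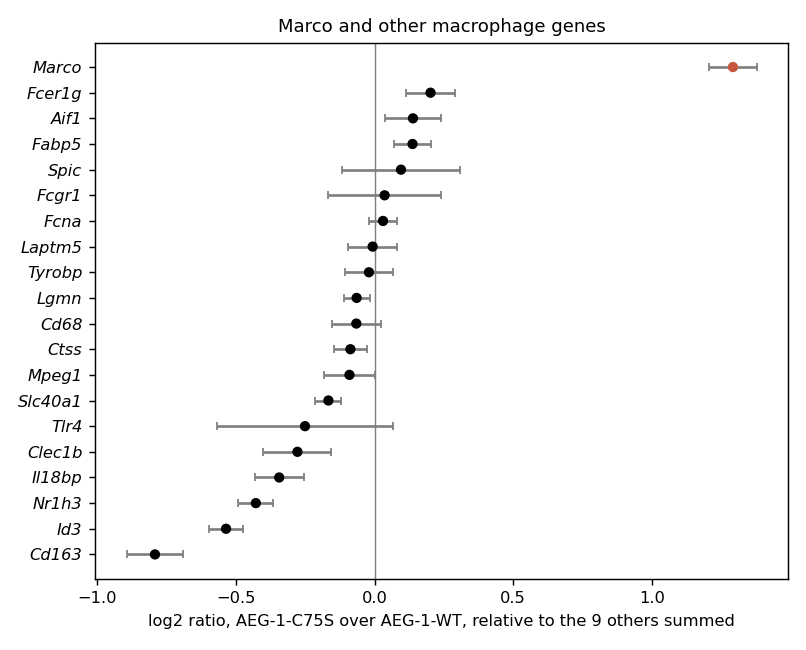
Log2 ratio of C75S over WT for Marco (red) and 19 other macrophage genes (black), each relative to the summed UMIs of the 9 other Kupffer cell genes, with 95% intervals for counting error and 1 section per genotype. Marco lies at 1.29 and the 19 genes between -0.79 (Cd163) and 0.20 (Fcer1g).

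The gene families to which the members belong are read beside all genes, of which 1.66% were at least 1.5-fold higher in C75S and 3.19% lower. At these shares a list this short would often hold none past 1.5-fold, so such counts say little about a family. The same holds for the short lists that follow where none or few of the genes were past it. Of the scavenger receptors, 11 of 14 were measured, none was 1.5-fold higher and 1 was lower, with a median of 0.04. Msr1, the class A receptor related to MARCO, had 25.3 and 30.1 CPM (0.25), Cd36, a receptor for fatty acids and oxidised lipoproteins, had 148 and 206 CPM (0.47), and Scara3, another class A member, had 6.79 and 4.06 CPM (-0.74). Among genes for the engulfment of dying cells, the process TIMD4 serves, none of 11 measured was 1.5-fold higher and Gas6, a bridge between phosphatidylserine and the MERTK and AXL receptors, was lower with 104 CPM in WT and 60.3 in C75S. The highest of them was Cd300lf, a phosphatidylserine receptor of myeloid cells, at 3.91 and 5.30 CPM (0.44). None of 11 measured genes for complement proteases, regulators and receptors, the partners of C1q and VSIG4, was past 1.5-fold, with a median of 0.02. Cfp, encoding properdin, was the highest of them at 97.1 and 143 CPM (0.55), C2 was the lowest at 42.6 and 36.5 CPM (-0.22), and C3 had 7855 and 7941 CPM (0.02).

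Of the CSF1R ligands and macrophage transcription factors, 11 of the 13 reported here were measured and none of these was past 1.5-fold, with a median of 0.10. Il34, a ligand of CSF1R, had 5.04 and 6.60 CPM (0.39), Spi1, encoding PU.1, had 25.1 and 33.4 CPM (0.41), and Spic, a factor of iron-handling macrophages, 7.34 and 9.81 CPM (0.42), while Csf1 was too thinly counted, with 82 and 81 UMIs. Of the genes listed for Kupffer cell niche signals, which include receptors as well as ligands, 10 of 12 were measured and none was past 1.5-fold. The ligands Bmp10 and Gdf2 had 0.43 and 0.36, and the lowest of the list, the receptor Notch2, had -0.28. Of 10 measured genes of NRF2 and its targets, a pathway known to induce Marco in macrophages, 1 was 1.5-fold higher, Osgin1 with 185 and 360 CPM (0.96), none was 1.5-fold lower and the median was -0.05. Hmox1, which breaks down haem, had 18.7 and 25.6 CPM (0.45), and Nqo1, a textbook NRF2 target, 21.3 and 16.8 CPM (-0.34).

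Some genes of other myeloid cells were higher in C75S. The 9 neutrophil genes summed to 428 UMIs (10.1 CPM) in WT and 708 UMIs (17.0 CPM) in C75S. Of the 3 that were measured, S100a9 (1.09) and S100a8 (0.95) were 1.5-fold higher, while the granule genes Camp and Ngp had at most 2 UMIs in a section. The monocyte genes reported here summed to 51.4 and 68.6 CPM, and the 2 that were measured, Ccr2, the chemokine receptor of blood monocytes (0.39), and Plac8 (0.42), were within 1.5-fold. Genes of lipid-associated macrophages summed to 74.9 and 111 CPM, of which Lpl, a lipase also made outside macrophages, was past 1.5-fold at 0.96 while Trem2 had 22 and 29 UMIs. Of the dendritic cell and capsular macrophage genes none of 6 measured was past 1.5-fold (617.9 and 620.9 CPM in sum). The same held for 3 measured genes of the macrophages that carry MARCO in other organs. The list summed to 32.6 and 28.9 CPM, of which Fabp4 alone held 21.8 and 18.8 CPM, so the sum mainly follows that gene. Siglec1 had 134 and 132 UMIs and Cd209b, of splenic marginal zone macrophages, 32 and 47.

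Of 12 measured genes of T, NK and B cells 1 was higher (Gzma, 0.63) and 1 lower (Jchain, -0.71), with sums of 76.3 and 79.7 CPM. Sinusoidal endothelial genes, whose cells line the vessels that hold the Kupffer cells, differed little, with sums of 792 and 823 CPM and none of 7 past 1.5-fold, from Kdr, a receptor for VEGF, at 94.8 and 94.5 CPM, to Gpr182 (0.13). Stellate cell genes summed to 629 and 784 CPM, with Hhip (0.87) the 1 of 8 past 1.5-fold and Lrat, which stores retinol as esters, the lowest (-0.48).

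Genes listed for portal tract structures were counted less in C75S. So were red blood cell genes, whose end bins stood in opposite order in the sections. From bin 1 to bin 5 their sum was 589, 526, 744, 480 and 804 CPM in WT. It was 611, 338, 311, 350 and 477 CPM in C75S, and neither section showed a steady rise or fall. In C75S the connective tissue genes Mgp, Dpt and Gsn were higher in bin 1 than in bin 5, while Col1a1 (-0.26) and Col1a2 (-0.16) were lower. All 5 genes of portal connective tissue were at least 1.5-fold lower, from Col1a2 (-0.77) to Col1a1 (-1.58), with sums of 126 and 54.1 CPM. Cholangiocyte genes summed to 129 and 96.6 CPM, with Krt7 (-1.06) the 1 of 4 measured past 1.5-fold and Sox9 (-0.11) the highest, and red blood cell genes, from Hba-a2 (-0.61) to Hbb-bt (-0.40) with 2 of 4 past it, summed to 627 and 416 CPM. In the 5% of spots richest in bile duct and connective tissue genes Marco had 2.11 UMIs per 100 of the others in WT (1.57 to 2.78) and 6.22 in C75S (5.23 to 7.34), and in all other spots 2.53 and 6.14. In the 5% richest in globin genes the counts were 2.62 and 6.01. The relative level of Marco between the sections was 1.28 on the log2 scale without the spots rich in bile duct and connective tissue genes. Without those rich in globin it was 1.29. The spots left out held few Marco UMIs, 52 in WT and 149 in C75S for the former and 63 and 117 for globin. Leaving them out could therefore move the ratio little. The part that portal tract, blood, neutrophil and monocyte genes have in the result was not tested.

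Depth was likewise set beside the relative level. In spots under 10000 UMIs, of which C75S had more, Marco had 2.89 UMIs per 100 of the others in WT (1.37 to 5.38) and 5.63 in C75S (4.96 to 6.36). From 10000 UMIs upward it had 2.43 to 2.73 in WT and 5.88 to 6.29 in C75S. The count was higher in C75S in each depth range, with intervals that overlapped below 10000 UMIs, where WT had 10 Marco UMIs. The part that depth has in the difference between the sections was not tested.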

How the data were processed

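Per the submitters' processing notes and the study's methods, the authors aligned reads to mm10 and its mouse probe set with Space Ranger 2.0.1 and analysed the matrices with Seurat 4.3.0. They deposited filtered matrices of raw UMI counts per gene and spot, 1 section for each of 2 genotypes, which were used as deposited. No column of another sample was found (0). Spots above 50000 UMIs were removed, as in the methods. The methods' limits of 100 to 7000 genes per spot left out no further spot (0 of those kept), and of 11 repeated symbols the first entry was used. UMIs were summed per section and bin and divided by the total of the same spots (CPM). Genes with at least 200 UMIs entered the background of 1.5-fold differences. Probe counts depend on the probes of each gene, so levels were not compared between genes, and probes cannot show the mutation.

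The members and the 18 gene lists were chosen with earlier results of these data known. Of the listed symbols 6 are not analysed here, since they did not match a symbol in the matrices. Some listed genes are not reported here and stand in none of the list counts. Named were all members, the 5 genes most like Marco and the 5 most like the others, and, of the 2 highest and 2 lowest genes of each list, those the text had room for, with others whose known role it needed. Promoters came from RefSeq (GRCm38.p6). Python 3.11.15, numpy 2.4.6, scipy 1.17.1, pandas 2.3.3, matplotlib 3.10.9 and, for TMM factors, edgeR 4.0.16 in R 4.3.3 were used. The intervals were also run on simulated counts drawn from the Poisson model that they assume. That run could not show error beyond counting, such as extra spread between spots or animals. Alternatives changed the spot filter, the scaling, the depth, the lobule axis, the gene minimum and the genes among the others.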

Additional observations from a re-analysis of the deposited data

Results flagged for a closer look

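Vsig4 was the 1 member whose gradient along the lobule had opposite signs in the sections. Its level in bin 1 against bin 5 was 68.2 and 61.5 CPM in WT, a log2 ratio of 0.15 (-0.03 to 0.33), and 82.3 and 83.8 CPM in C75S, a log2 ratio of -0.03 (-0.18 to 0.13). The gradients differed by -0.18 (-0.41 to 0.06). With bins set at the same axis values in both sections the gradients had the same sign, 0.12 and 0.052, and differed by -0.069 (-0.31 to 0.17). All these intervals include 0 and cover counting error only, and with 1 section per genotype the difference was not tested between animals.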

How the results depend on the processing

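Of 158 recomputed values of the main comparisons, 127 stayed close to the main value and 31 moved further. Close meant inside the counting interval of the main value, or, for counts of genes, within 1.5-fold of the main count. No ratio among them changed sign. Of 138 for single genes and middle bins, 112 stayed inside the counting interval, 25 moved further and 1 changed sign. That was Csf1r between the sections, at -0.030 with spots thinned to 3000 UMIs in a single random draw. The relative level of Marco over the whole sections stayed between 1.24 and 1.47, the latter without the spots with the most Marco UMIs. The 9 others between the sections were 0.37 when centred on the median gene, 0.37 without the 20 most abundant genes in the totals, 0.38 with TMM, 0.29 with equal weight per spot, 0.28 thinned, 0.37 in spots matched on total UMIs, 0.37 without Clec4f, 0.27 without Cd5l and 0.35 as a geometric mean. Thinning was a single random draw with fewer UMIs and so wider counting error. In it the gradients from bin 1 to bin 5 in WT and C75S were 0.38 and 0.35 for Marco, 0.13 and 0.044 for the others and 0.24 and 0.31 for Marco relative to them. The gradient of the others was 0.15 and 0.068 with an axis from 6 other genes and 0.26 and 0.16 without the spots richest in bile duct and connective tissue genes. It was 0.12 in WT with 3 bins in place of 5, and 0.16 in C75S as a geometric mean. With the same axis values in both sections it was 0.16 and 0.16, that of Marco 0.70 and 0.71 and that of Marco relative to the others 0.54 and 0.54, so that the gradients of the sections then differed by less than counting error. Without the 5% of spots with the most Marco UMIs, Marco between the sections was 1.78 and its relative level 1.47. In C75S the gradients then were 0.33 for Marco, 0.053 for the others and 0.28 for Marco relative to them. These spots were picked by Marco itself, so this setting is no independent check. The 10% of spots with the most Marco held 44.1% of its UMIs in WT and 33.7% in C75S. With a minimum of 50 UMIs 275 genes were 1.5-fold higher and 624 lower, and with 1000 UMIs 95 and 138. Why these values moved was not tested. No paired analysis was possible because each genotype had 1 section. Depth limits the bins of Adgre1, with 66 to 96 UMIs in WT and 85 to 135 in C75S, and Marco in small sets of WT spots, with 52 UMIs in those rich in bile duct and connective tissue genes and 10 in those under 10000 UMIs.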

Other observations

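Not every gene of the macrophage list ran along the lobule as the members did. Fabp5, a fatty acid binding protein that cells other than macrophages also make, was lower in bin 1 than in bin 5, with log2 ratios of -0.75 in WT and -0.45 in C75S. Nr1h3, the liver X receptor (-0.15 and -0.20), and Id3, an inhibitor of transcription factors (-0.39 and -0.29), which hepatocytes or endothelial cells may also express, were lower there too. Fcna, a ficolin of Kupffer cells, had 0.06 and -0.12, and Slc40a1 had 0.20 and 0.26. The neighbours of Kupffer cells in the sinusoid were counted least at the periportal end, with summed sinusoidal endothelial genes at 642, 797, 824, 871 and 812 CPM from bin 1 to bin 5 in WT and 713, 844, 866, 890 and 796 CPM in C75S. Stellate cell genes had 493 CPM in bin 1 and 648 CPM in bin 5 of WT, and 589 and 818 CPM in C75S. Cholangiocyte genes ran the other way, from 262 to 30.8 CPM in WT and from 155 to 37.1 CPM in C75S.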
